A study of Homo sapiens with 30 samples.

Results

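TGFA and the EGF receptor family comprise here 9 genes chosen by name: the ligands TGFA, AREG, EREG, HBEGF and BTC, the receptors EGFR, ERBB2 and ERBB3, and the intracellular inhibitor ERRFI1. Each gene was read from its brightest probe set, by mean over all 30 arrays, among probe sets annotated with a single symbol. Of the 9 genes, 8 were matched among 12690 genes with such a probe set, and 5 (TGFA, HBEGF, EGFR, ERBB2 and ERRFI1) lay among the 7614 genes bright enough to be tested. AREG is not analysed here, and EREG, BTC and ERBB3 are given as intensities only. TGFA passed the limit on dim genes narrowly, with a mean at percentile 41.5 of all genes, where the limit removed those below the upper 60%.

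The study measured total RNA of 3 human carcinoma lines on Affymetrix GeneChip arrays, asking how VHL and p53 genotype bear on gene expression in hypoxia. RCC4 is a renal carcinoma line without functional VHL, used as VHL-null cells and as cells with wild-type VHL reintroduced, called VHL-restored here. Both were kept below 0.01% oxygen for 0, 1, 2, 4, 6 or 18 h, or for 18 h followed by 1 h or 4 h of reoxygenation, giving 20 arrays. H1299, a non-small cell lung cancer line, was used as p53-null cells and with p53 reintroduced, at 0 h and 24 h, on 4 arrays. HCT116, a colon carcinoma line, was used without p53 and with wild-type p53 at 0, 12 and 24 h, on 6 arrays. All cells grew as monolayers. The labels name no clones and do not say what drives the reintroduced genes, so clone and genotype cannot be told apart. The 4 RCC4 groups at 0 h and 18 h had 2 independent replicates each, and every other group was 1 array.

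A group of 5 control entries was blank on 18 of the arrays, set 1, and held values on the other 12, set 2. Set 1 took in every H1299 and HCT116 array, the RCC4 arrays of 2 h and 6 h, and replicate 1 of the 0 h and 18 h groups. Set 2 took in reoxygenation, the RCC4 arrays of 1 h and 4 h, and replicate 2 of the 0 h and 18 h groups. Outside 0 h and 18 h, time and set therefore cannot be told apart, whereas both genotypes of a state shared a set. The arrays of set 1 had median listed intensities of 145 to 174 and those of set 2 of 201 to 222, and 18.4% to 40.4% of the entries of an array were null, which is taken as 0 here. Log2 values are log2(intensity + 16) minus the array's median over genes. The VHL probe set read 14 to 109 on the VHL-null arrays and 0 to 40 on the VHL-restored arrays. Its position in the transcript is not stated, so it does not check the genotype. Of the renal markers 4 of 8 were in the table. Of these, 1 to 2 lay above the array median in RCC4 and 0 to 1 in H1299 and in HCT116. Of the colon markers 7 of 8 were in the table. Of these, 2 lay above the median on every HCT116 array, 2 on every H1299 array and 0 to 2 in RCC4. The colon count therefore did not set HCT116 apart from H1299. KRT20 and GPA33 were null throughout HCT116 and H1299, and VIL1 throughout H1299. Of the lung markers 4 of 5 were in the table, and 2 lay above the median in every line. All 4 simple epithelial markers lay above it in HCT116, 2 to 3 in RCC4 and 2 in H1299. Of other cell types, 0 to 1 of 3 leukocyte markers, 3 of 5 endothelial markers (TEK null throughout) and 1 to 3 of 6 fibroblast markers lay above it in the lines.

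EGF family ligands are made as membrane-bound precursors that proteases of the ADAM class release. TGFA and AREG bind EGFR, while HBEGF, EREG and BTC bind EGFR and ERBB4. Bound receptors pair with one another, and ERBB2, which has no known ligand of its own, is the preferred partner, whereas ERBB3 has little kinase activity and relies on its partner. The pairs signal through adaptor proteins to RAS and ERK, and ERRFI1 (MIG6) binds the EGFR kinase domain and blocks it. In renal carcinoma without VHL, the HIF transcription factors stay active in oxygen, and TGFA is known as one of the genes they induce.

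The stretches before the transcription starts of TGFA and EGFR are shown because these were the ligand and the receptor called between VHL genotypes over the 8 states of RCC4. Both calls were lost without centring the arrays, and EGFR was not called between genotypes in oxygen. HIF binds a short core, searched here as ACGTG and as GCGTG on both strands in the 250 bases before each start of the RefSeq promoters of build GRCh38.p14; a CACGTG would count on both strands. Neither motif was found in the 250 bases before the first TGFA start, chr2:70553827-70554076 on the minus strand, or before the first EGFR start, chr7:55018767-55019016 on the plus strand.
TGFA, first start: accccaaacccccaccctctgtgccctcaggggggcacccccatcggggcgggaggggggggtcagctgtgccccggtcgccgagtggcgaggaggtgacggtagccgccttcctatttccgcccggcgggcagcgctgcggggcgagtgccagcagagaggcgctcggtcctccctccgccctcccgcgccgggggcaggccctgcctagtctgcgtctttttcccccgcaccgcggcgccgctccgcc
EGFR, first start: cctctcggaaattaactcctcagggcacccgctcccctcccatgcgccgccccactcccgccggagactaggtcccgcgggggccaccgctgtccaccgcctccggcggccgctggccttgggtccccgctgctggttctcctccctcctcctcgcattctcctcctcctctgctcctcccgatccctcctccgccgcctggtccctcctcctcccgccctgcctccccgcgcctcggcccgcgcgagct
TGFA has another start downstream of the first, and GCGTG begins 51 bases before it; in the 29 bases around it, chr2:70553481-70553509 on the minus strand, the motif is in capitals.
TGFA, other start: tgcctgggccgtGCGTGagaacacctggg
Among the other genes, AREG had 2 matches and EREG and BTC 1 each, while HBEGF, ERBB2, ERRFI1 and the other EGFR start had 0. A match was present before 15172 of 35114 starts (43.2%), so holding one sets none of these genes apart, and its absence says only that these letters are not in the window.

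TGFA was low in VHL-restored RCC4 cells in oxygen, higher there after 18 h of hypoxia, and higher in VHL-null cells already in oxygen, by the fits with a replicate block. In oxygen the VHL-null arrays read 133 and 221 (replicates 1 and 2) and the VHL-restored arrays 34 and 95. After 18 h it was 207 and 308 in VHL-null and 227 and 253 in VHL-restored cells. Within each replicate the VHL-null array was the higher in oxygen, while after 18 h the order differed between the replicates. How many other genes order this way was not counted.

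In VHL-restored cells, TGFA stood 3.55-fold higher after 18 h of hypoxia (log2 change 1.83, n = 2 arrays per time). The change was 2.32 in replicate 1 and 1.34 in replicate 2. Without a block it missed the threshold (SE 0.236, limma adjusted p = 0.0549), and it passed once replicate number entered as a block (SE 0.158, adjusted p = 1.48e-06). Replicate number equals array set in these groups. The calls without a block took in 0.0394% of all genes and those with it 6.58%, of which 3.7% of all genes were rises. The HIF-induced genes ADM, BNIP3 and NDRG1 stood at 2.80, 2.38 and 1.86 in the same comparison, so TGFA moved about as far as NDRG1 on this scale.

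In VHL-null cells TGFA stood at 0.55 after the same exposure (1.47-fold, 0.55 and 0.56 in the replicates), which did not pass with the block (SE 0.158, adjusted p = 0.162; 0.486% of genes called) or without it (adjusted p = 1; none called, 51 of 7614 at an unadjusted p under 0.05). The difference between the hypoxia changes of the genotypes was -1.27 (VHL-null minus VHL-restored). It passed with the block (SE 0.223, 95% interval -1.74 to -0.80, adjusted p = 0.0113; 0.565% of genes called) and not without it (adjusted p = 1; none of the genes called, with 45 at an unadjusted p under 0.05).

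Between the genotypes in oxygen, TGFA in VHL-null cells exceeded that in VHL-restored cells 2.43-fold (log2 difference 1.28). The difference was 1.63 in replicate 1 and 0.93 in replicate 2. With the block it passed (SE 0.158, adjusted p = 5.14e-05; 7.51% of genes called, 3.1% as higher), and without it it did not (SE 0.236, adjusted p = 0.177; 0.118% called). After 18 h the difference was 0.01, with a 95% interval of -0.33 to 0.34 under the block (7.59% of genes called; 0.0263% without the block). These comparisons share arrays, so the hypoxia change and the genotype difference are not independent of each other.

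**Figure D1:**
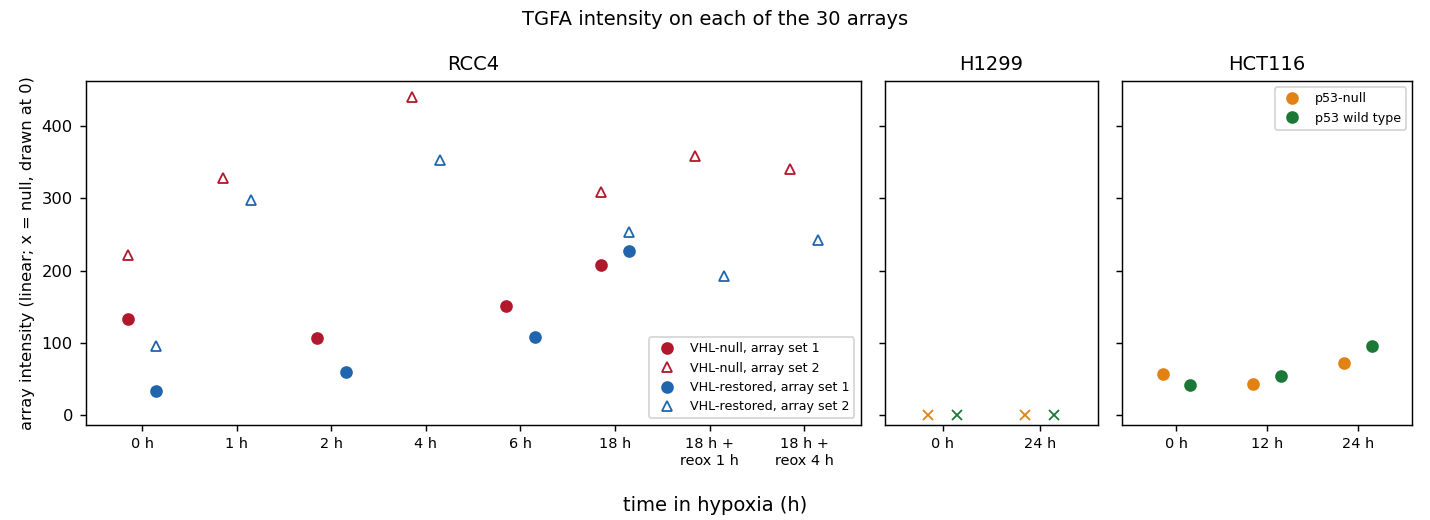
TGFA intensity (linear) on each of the 30 arrays against time in hypoxia, 1 panel per line; filled circles are array set 1, open triangles array set 2, colours the genotypes, and crosses null entries drawn at 0. The VHL-restored RCC4 arrays at 0 h (34 and 95) are the lowest of RCC4 apart from the VHL-restored array at 2 h (60), and H1299 is null throughout.

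The other RCC4 times were single arrays. TGFA read 106 at 2 h and 151 at 6 h in VHL-null cells and 60 and 108 in VHL-restored cells, all in array set 1. In set 2 it read 328 at 1 h and 440 at 4 h in VHL-null and 298 and 353 in VHL-restored cells. Against the 0 h array of the same genotype and set, VHL-restored cells stood at 0.63, 1.35 and 2.32 on the log2 scale at 2, 6 and 18 h in set 1. In set 2 they stood at 1.62, 1.86 and 1.34 at 1, 4 and 18 h, so the set 2 arrays were as high at 1 h as at 18 h. The VHL-null cells stood at -0.29, 0.13 and 0.55 in set 1 and at 0.82, 1.18 and 0.56 in set 2.

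After 1 h and 4 h of reoxygenation, TGFA read 359 and 341 in VHL-null cells and 192 and 242 in VHL-restored cells. Both VHL-restored values stayed above the 95 of the 0 h array of that set. Against 18 h of hypoxia, 4 h of reoxygenation differed by 0.16 over both genotypes (95% interval -0.39 to 0.70, adjusted p = 0.788), where 0.801% of genes were called. ADM differed by -2.89 in that comparison (adjusted p = 0.00512), while BNIP3 and NDRG1 differed by 0.15 and -0.06.

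Over all 8 states of RCC4, TGFA was 1.42-fold higher without VHL (log2 difference 0.50, SE 0.133, adjusted p = 0.0165). It was higher in 9 of 10 pairs of arrays, the exception being replicate 1 at 18 h, at -0.14. This comparison called 15.1% of all genes, 7.14% as higher and 7.97% as lower, so a call here is common. With the array set as a block the adjusted p was 0.00805, where 34.2% of genes were called. In array set 1 alone (4 pairs, differences from -0.14 to 1.63) it was 0.65 with a limma adjusted p of 0.10 (14.7% of genes called). In set 2 alone (6 pairs, 0.13 to 0.93) it was 0.40 with an adjusted p of 0.0113. That fit called 45.7% of all genes, 12.4% as higher, so a call there is common too. Both fits of 1 set were added after the data were seen. Without centring the arrays the TGFA difference over the 8 states was 0.57 with an adjusted p of 0.129.

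In HCT116 cells TGFA read 57, 43 and 72 at 0, 12 and 24 h in p53-null cells and 41, 54 and 95 in p53 wild-type cells. It was null on all 4 H1299 arrays. The 24 h change over both lines, with the H1299 changes fixed near 0 by null entries, was 0.32 (SE 0.182, adjusted p = 0.654), and none of the genes passed there (427 at an unadjusted p under 0.05). In HCT116 the change at 24 h was 0.26 without p53 and 0.99 with it, each from single arrays. Between p53 genotypes TGFA differed by 0.04 (95% interval -0.21 to 0.30, adjusted p = 0.949), and no gene passed (526 had an unadjusted p under 0.05, and the smallest adjusted p was 0.0566). The H1299 pairs compare null with null and so stood at 0 and -0.01, which draws the mean toward 0, whereas the HCT116 pairs stood at -0.38, 0.25 and 0.36 at 0, 12 and 24 h. All 10 values of H1299 and HCT116 lay under the limit on dim genes (intensity 95.4), so TGFA was tested only because of its RCC4 arrays. The tests of TGFA in these lines and between lines are therefore given as a description and support nothing. By line mean over both genotypes, the order in oxygen was RCC4, HCT116, H1299. By genotype, VHL-null RCC4 averaged -0.12 on the log2 scale and VHL-restored RCC4 -1.4, the latter below HCT116 at -1.16. RCC4 and HCT116 did not differ beyond their spread (0.40, 95% interval -0.47 to 1.26, adjusted p = 0.419). RCC4 against H1299 gave an adjusted p of 0.00107 (13% of genes were called as higher). H1299 against HCT116 gave an adjusted p of 0.0325 (3.95% of genes called, 1.86% as higher in HCT116), which rose to between 0.104 and 0.212 when any 1 of the 4 HCT116 and H1299 arrays at 0 h was left out, and to 0.0706 with array set 1 alone (6.32% of genes called). No fold is given against H1299, where TGFA is listed at null.

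HBEGF, the heparin-binding ligand, was listed on every array and was not called for 18 h of hypoxia. In oxygen it read 340 and 836 in VHL-null and 446 and 820 in VHL-restored RCC4 cells. After 18 h it read 335 and 920 in VHL-null and 385 and 770 in VHL-restored cells. The difference was -0.10 in VHL-restored cells (95% interval -0.34 to 0.14 with the block, adjusted p = 0.773) and 0.09 in VHL-null cells (-0.14 to 0.33, adjusted p = 0.98). The replicates differed more than the times: replicate 2 exceeded replicate 1 by 0.53 on average over the 4 groups, from 0.33 to 0.81, after centring.

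The genotype difference of HBEGF had opposite signs in the array sets. In set 1 VHL-null cells were lower in all 4 pairs (-0.33 to -0.17). In set 2 they were higher in 5 of 6 pairs (-0.14 to 0.82), with 1142 against 755 at 1 h, 1419 against 765 at 4 h, 1015 against 598 at 1 h of reoxygenation and 794 against 474 at 4 h of it. Over all 8 states HBEGF differed by 0.15 and was not called (SE 0.141, adjusted p = 0.557). Within set 1 the difference was -0.26 (adjusted p = 0.0129; 14.7% of genes called, 6.55% as lower) and within set 2 it was 0.42 (adjusted p = 0.0119; 45.7% called, 12.4% as higher). These fits were added after the pattern was seen. At the times both sets hold, the differences were -0.32 (set 1) and -0.14 (set 2) at 0 h, of the same sign, and -0.21 and 0.14 at 18 h. The other times lie in 1 set each, so there set and time cannot be told apart.

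Against 0 h in set 2, HBEGF in VHL-null cells stood at 0.73 after 1 h and 0.99 after 4 h, and in VHL-restored cells at 0.01 and 0.03. At 2 h and 6 h, in set 1, the intensities were 381 and 403 in VHL-null and 494 and 449 in VHL-restored cells, within 0.20 of 0 h on the log2 scale in both genotypes. H1299 read 342 and 356 without p53 and 364 and 365 with it. HCT116 read 391, 449 and 432 without p53 and 345, 408 and 374 with it. All 10 values lay within the range of set 1 of RCC4 (335 to 494). HBEGF was not called between lines in oxygen: RCC4 minus HCT116 was 0.13 (adjusted p = 0.571), RCC4 minus H1299 was 0.21 (0.375), and H1299 minus HCT116 was -0.08 (adjusted p = 1).

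**Figure D2:**
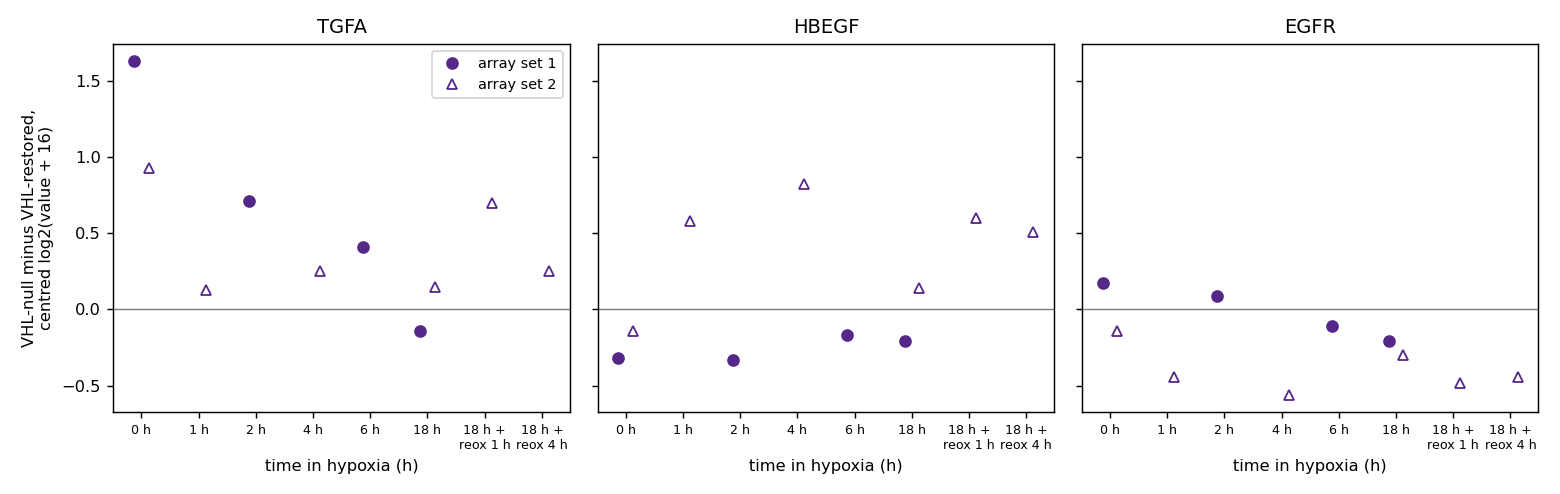
VHL-null minus VHL-restored in centred log2(intensity + 16) for each pair of RCC4 arrays, by time in hypoxia, for TGFA, HBEGF and EGFR; filled circles are array set 1 and open triangles set 2. TGFA lies above 0 in 9 of 10 pairs, HBEGF below 0 in all 4 pairs of set 1 and above it in 5 of 6 of set 2, and EGFR below 0 in all 6 pairs of set 2.

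EREG and BTC, the other ligands measured, were at or near the bottom of the scale. EREG was null on 26 of 30 arrays and listed only in HCT116, at 29 and 22 (0 h and 12 h) without p53 and at 33 and 21 with it, and null at 24 h in both. BTC was null on all 30 arrays.

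EGFR itself rose with 18 h of hypoxia in VHL-restored RCC4 cells by the fit with a replicate block. Over the states its brightest probe set was called lower in VHL-null than in VHL-restored cells, and this call rests on array set 2. In oxygen its brightest probe set, designed on an EGFR mRNA record, read 245 and 359 in VHL-null and 224 and 351 in VHL-restored cells. After 18 h it read 294 and 407 in VHL-null and 338 and 465 in VHL-restored cells. The genotypes overlapped in oxygen, and within each replicate the VHL-restored array was the higher after 18 h.

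The 18 h change in VHL-restored cells was 1.44-fold (log2 0.52, 0.60 and 0.45 in the replicates). It passed with the replicate block (SE 0.103, adjusted p = 0.00427) and not without it (SE 0.165, adjusted p = 1). With the block, 2 of the 5 tested members, TGFA and EGFR, thus rose, where 3.7% of all genes did. A second EGFR probe set, designed on expressed sequence tags, changed by 0.60 (SE 0.133, block adjusted p = 0.00932). In VHL-null cells the brightest probe set changed by 0.25 (95% interval 0.03 to 0.47, block adjusted p = 0.482). At 18 h itself the second probe set was 1.41-fold lower in VHL-null cells (log2 -0.50, SE 0.133), past the threshold with the block (adjusted p = 0.0275; 3.97% of genes called as lower) and not without it (adjusted p = 1), while the brightest stood at -0.26 (block adjusted p = 0.173). The difference between the hypoxia changes of the genotypes was not called for the brightest (-0.27, 95% interval -0.58 to 0.03, block adjusted p = 0.949).

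**Figure D3:**
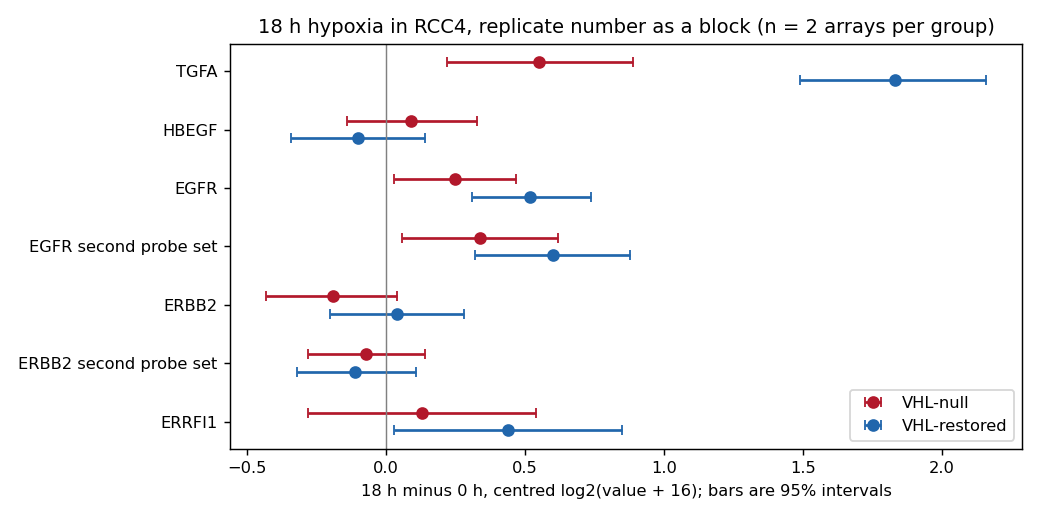
Change from 0 h to 18 h of hypoxia in RCC4, in centred log2(intensity + 16), for each tested member and the second probe sets of EGFR and ERBB2, with 95% intervals from the fit with the replicate number as a block (n = 2 arrays per group). TGFA stands at 1.83 in VHL-restored and 0.55 in VHL-null cells, EGFR at 0.52 and 0.25, and the HBEGF and ERBB2 intervals include 0.

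At the other times the VHL-restored cells read higher for EGFR in set 2 and about the same in set 1. In set 2 they read 529 at 1 h, 601 at 4 h, 485 at 1 h of reoxygenation and 438 at 4 h of it, against 388, 420, 381 and 373 in VHL-null cells. In set 1 they read 216 at 2 h and 255 at 6 h, against 226 and 239. Over the 8 states VHL-null cells differed by -0.24 (SE 0.0726, adjusted p = 0.0329; array set as a block 0.0103). The second probe set differed by -0.49 (SE 0.106, adjusted p = 0.00424; array set as a block 0.000167) and was lower in 9 of 10 pairs. For the brightest probe set all 6 pairs of set 2 were lower (-0.56 to -0.14), while set 1 had 2 of 4 lower and a mean of -0.01, so the call rests on set 2. It was lost in set 1 alone (adjusted p = 0.942), without VHL-restored replicate 1 at 18 h (0.0551), without VHL-null replicate 2 at 18 h (0.0617), without the VHL-restored array at 4 h of reoxygenation (0.079) and without centring (-0.17, adjusted p = 0.546).

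The EGFR probe sets followed each other within RCC4 and parted between lines. Across the 20 RCC4 arrays their Pearson correlation was 0.88 (0.92 over the 8 of set 1 and 0.90 over the 12 of set 2), and across all 30 arrays it was -0.46, as a description of arrays that share line and set. The brightest read 301 to 351 in H1299 and 357 to 407 in HCT116, against 216 to 601 in RCC4. The second read null, 9, 19 and 19 in H1299 and 13 to 62 in HCT116, against 238 to 1040 in RCC4. In oxygen RCC4 minus HCT116 was -0.81 (SE 0.129, adjusted p = 0.00084) by the brightest and 2.61 (SE 0.307, adjusted p = 0.000131) by the second. RCC4 minus H1299 was -0.68 (adjusted p = 0.00286) and 3.75 (adjusted p = 1.76e-05). The mean of both probe sets gave 0.85 and 1.46. Thus no direction between lines is given for EGFR; within RCC4 both probe sets had the same sign for the 18 h change in each genotype, for the genotype difference at 18 h and for that over the 8 states. In oxygen the genotype difference was 0.02 by the brightest and -0.24 by the second, neither called. In H1299 and HCT116 EGFR stood at -0.02 after 24 h of hypoxia (95% interval -0.16 to 0.12) and at 0.04 with p53 (-0.09 to 0.17). None of the 5 tested members was called in either comparison, and neither was any other of the 7614 genes tested.

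**Figure D4:**
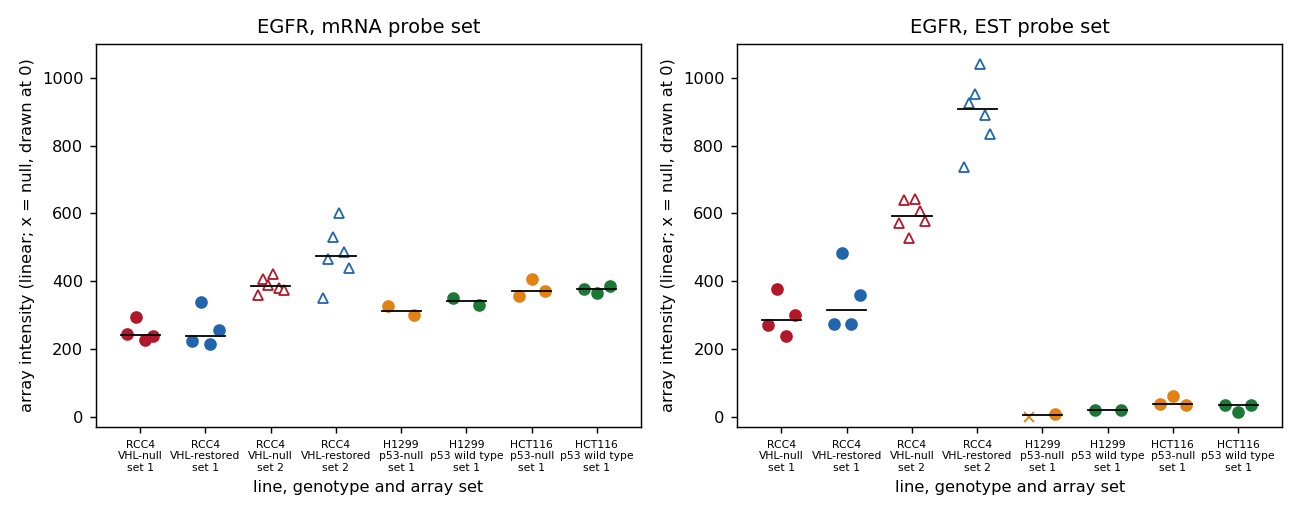
Intensity (linear) of the 2 EGFR probe sets on every array, grouped by line, genotype and array set; points are arrays, black bars group medians, and the cross a null entry drawn at 0. The mRNA probe set spans 216 to 601 with the lines overlapping, while the probe set from expressed sequence tags reads 238 to 1040 in RCC4 and at most 62 in the other lines.

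ERBB2, the shared partner receptor, was not called for hypoxia or VHL and was lower in RCC4 than in the other lines by its brightest probe set. In RCC4 it read 82 to 107 in set 1 and 118 to 232 in set 2. H1299 read 205, 247, 234 and 238, and HCT116 read 176 to 250, with a median of 228. Of these 10 arrays all exceeded every RCC4 array of the same set. RCC4 minus HCT116 in oxygen was -1.04 (SE 0.149, adjusted p = 0.000444) and RCC4 minus H1299 was -1.03 (adjusted p = 0.000551).

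The first of these comparisons called 40.5% of all genes (25.5% as lower in RCC4) and the second 35.3% (22.2% as lower), so a call is common. The median over all tested genes was itself -0.21 and -0.20 with centring and 0.27 and 0.26 without it. Without centring ERBB2 stood at -0.56 and -0.58 and did not pass (adjusted p = 0.203 and 0.216). The second ERBB2 probe set read 106 to 205 across RCC4, where H1299 read 144 to 153 and HCT116 132 to 169, and its line differences did not pass (-0.40, adjusted p = 0.068, and -0.28, adjusted p = 0.178). With hypoxia in VHL-restored cells ERBB2 changed by 0.04 (block 95% interval -0.20 to 0.28), and over the 8 states the genotypes differed by 0.06 (-0.10 to 0.23). ERBB3 was listed by its brightest probe set only in HCT116, at 33, 15 and 16 without p53 and 32, 16 and 6 with it, and its second probe set read at most 19 on any array.

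ERRFI1, the EGFR kinase inhibitor, was much lower in RCC4 than in H1299 or HCT116. In oxygen it read 37 and 270 in VHL-null RCC4, 45 and 142 in VHL-restored RCC4, 493 and 612 in H1299 without and with p53, and 607 and 739 in HCT116. All RCC4 arrays in oxygen lay below all arrays of the other lines. RCC4 was 8.7-fold below HCT116 (log2 -3.12, SE 0.392, adjusted p = 0.000197) and 7.06-fold below H1299 (log2 -2.82, SE 0.392, adjusted p = 0.000431). With only the arrays of set 1, to which H1299 and HCT116 belong, the differences were -3.75 (13.5-fold, adjusted p = 0.000126; 35.9% of genes called) and -3.45 (10.9-fold, adjusted p = 0.000159; 31.5% called). Without centring RCC4 minus H1299 was -2.36 with an adjusted p of 0.0504. Across all times ERRFI1 read 451 to 612 in H1299 and 607 to 764 in HCT116, where RCC4 reached at most 317.

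Within RCC4 the ERRFI1 values followed the array set. They were 36 to 71 in set 1 and 142 to 317 in set 2, apart from a null entry at 4 h of reoxygenation in VHL-restored cells. Replicate 2 exceeded replicate 1 by 1.43 on average over the 4 groups (0.84 to 2.08). The 18 h change was 0.44 in VHL-restored cells (block 95% interval 0.03 to 0.85, adjusted p = 0.246) and 0.13 in VHL-null cells. At 4 h of reoxygenation against 18 h it was -1.19 (adjusted p = 0.465), and without that null entry's array it was 0.53 (adjusted p = 0.646), so 1 array sets the sign. With the array set as a block it was -1.91 (adjusted p = 0.101; 2.63% of genes called). Over the 8 states the genotypes differed by 0.45 (adjusted p = 0.491) and by 0.10 (adjusted p = 0.88) without that array.

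**Figure D5:**
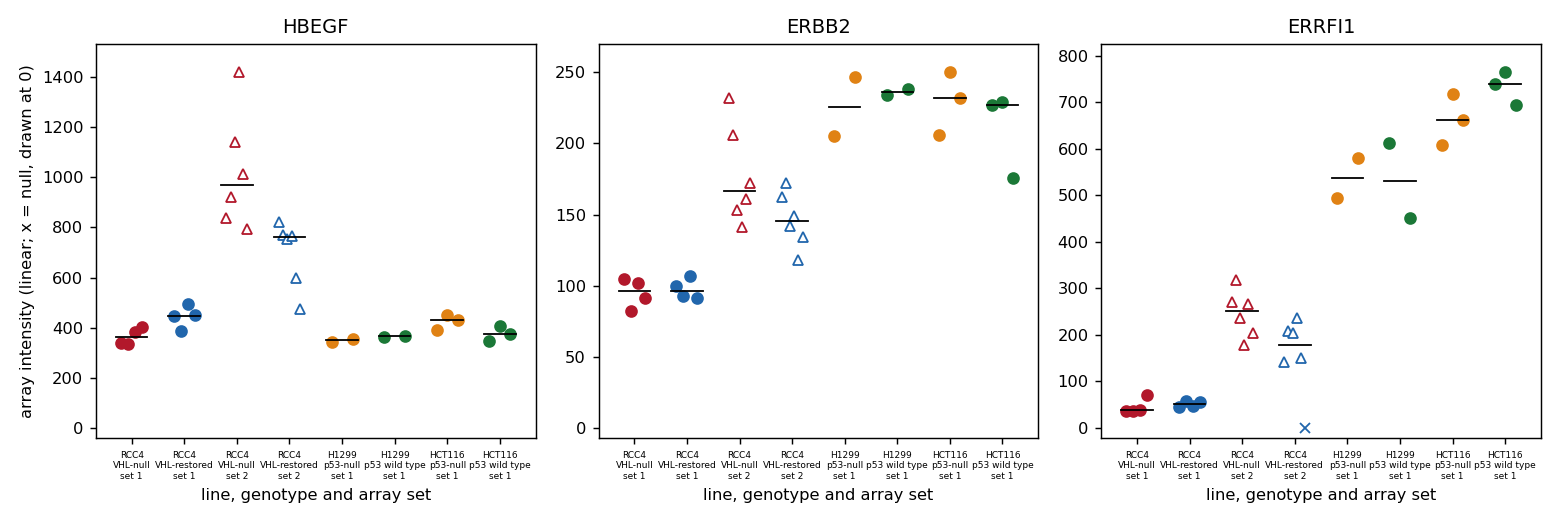
Intensity (linear) of HBEGF, ERBB2 and ERRFI1 on every array, grouped by line, genotype and array set; points are arrays, black bars group medians, and the cross a null entry drawn at 0. By group median, HBEGF and ERRFI1 are higher in set 2 than in set 1 of RCC4. The HBEGF ranges overlap (335 to 494 and 474 to 1419), and 1 ERRFI1 array of set 2 is null. ERRFI1 is at most 317 in RCC4 against 451 or more in H1299 and HCT116.

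Other genes of the pathway were counted in 6 lists by role. Of 7 other ligands and receptors of the family only NRG1 was tested, and of 7 shedding proteases and their partners 3 were. Of 18 adaptors 9 were tested, of 13 RAS-ERK genes 5, of 16 genes that restrain receptors 7, and of 16 ERK-responsive genes 11. With 18 h of hypoxia in VHL-restored cells and the replicate block, 5 of the 11 ERK-responsive genes rose and 0 fell, with a median change of 0.30 against 0.05 over all genes; of all genes 3.7% rose in that fit and 6.58% were called in all. ETV5, an ETS transcription factor, rose by 0.73 (adjusted p = 0.000542), DUSP5, an ERK phosphatase, by 0.54 (0.0198), IER3 by 0.49 (0.00572) and PLAUR, the urokinase receptor, by 0.46 (0.0273). Among the adaptors PTPN11, the phosphatase SHP2, fell by 0.57 (adjusted p = 0.0039), and no gene of the other lists passed. Without the block no gene of the lists passed in this comparison.

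In VHL-null cells 18 h of hypoxia moved 0 of 11 ERK-responsive genes past the threshold with the block (median 0.09), and SOCS3, a cytokine signalling inhibitor, rose by 0.74 (adjusted p = 0.046; 0.486% of genes called). The difference between genotypes in the hypoxia change passed for ETV5 (-0.82, adjusted p = 0.0244) and PHLDA1 (-0.73, adjusted p = 0.049) with the block, where 0.565% of genes were called. Without the block no gene of the lists was called for either, so the SOCS3, ETV5 and PHLDA1 calls are lost there.

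Between genotypes in oxygen, 3 of 11 ERK-responsive genes were higher and 1 lower in VHL-null cells with the block, where 7.51% of all genes were called. CCND1, the G1 cyclin, stood at 1.77 (adjusted p = 8.57e-08), DUSP5 at 0.84 (0.00056), IER3 at 0.35 (0.0416) and PHLDA1 at -0.84 (0.000119). ADAM12, a metalloprotease, stood at 0.44 (adjusted p = 0.0108) and HRAS at 0.36 (0.042). Without the block CCND1 alone of the lists passed (adjusted p = 0.0346). After 18 h, with the block (7.59% of genes called), CCND1 stood at 1.58 (4.62e-07), PHLDA1 at -1.57 (1.75e-07) and ETV5 at -0.80 (0.000236). In that fit RHBDF1, an inactive rhomboid that helps ADAM17 mature, stood at -0.58 (0.00158), ADAM12 at 0.57 (0.00173), HRAS at 0.37 (0.0323) and SHC1 at -0.35 (0.0499), and no gene of the lists passed without the block.

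Over the 8 states, 2 ERK-responsive genes were higher in VHL-null cells, CCND1 by 1.60 (adjusted p = 5.26e-10) and DUSP5 by 0.49 (0.0224). Another 2 were lower, PHLDA1 at -1.28 (3.88e-06) and ETV5 at -0.49 (0.00274). Of all genes 7.14% were called higher and 7.97% lower in that fit, and 34.2% were called with the array set as a block, where 3 ERK-responsive genes were higher and 2 lower. Among the shedding genes ADAM12 was higher by 0.55 (0.000994) and RHBDF1 stood at -0.42 (0.000395). The adaptor SHC1 stood at -0.38 (0.00097) and HRAS at 0.38 (0.000309). After 4 h of reoxygenation PHLDA1 stood at -1.90 against 18 h (adjusted p = 0.00126).

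Between lines in oxygen, 5 of the 7 receptor-restraining genes were lower in RCC4 than in HCT116 and 0 higher, as ERRFI1 was (median -0.56 against -0.21 over all genes, of which 25.5% were called lower). They included SPRY4 at -1.06 (adjusted p = 0.000639), SPRED1 at -0.78 (0.0102), SOCS3 at -0.68 (0.0369) and the ubiquitin ligase CBL at -0.56 (0.0324). Against H1299 it was 3 of 7, where 22.2% of all genes were called lower. Of the ERK-responsive genes 7 of 11 were lower in RCC4 than in HCT116 and 1 higher, with DUSP5 at -3.16 (2.75e-05), ETV5 at -1.84 (2.74e-05) and IER3 at -0.89 (0.0109), against PHLDA1 at 2.10 (0.000729); 25.5% of all genes were called lower and 15% higher. Against H1299 4 of the 11 were lower and 2 higher (median -0.08 against -0.20 over all genes). ETV5 stood at -1.27 (0.000301) and ETV4 at -0.61 (0.0178), against PHLDA1 at 3.77 (2.47e-05) and IER3 at 1.54 (0.000616). IER3 thus had opposite signs against the 2 lines. H1299 itself had 3 of the 11 lower than HCT116 and 0 higher, where 1.86% of all genes were called lower. They were DUSP5 at -3.08 (0.000525), IER3 at -2.43 (0.000525) and PHLDA1 at -1.67 (0.0365). Low DUSP5 against HCT116 was therefore not particular to RCC4. In the array set shared by the lines the counts of RCC4 against HCT116 were 4 of 7 and 6 of 11 lower. Of all genes 35.9% were called there in either direction. The 4 were SPRY4, SOCS3, SPRED1 and LRIG2, so the CBL call was lost there. In the same set the counts against H1299 were 2 of 7 lower, and 4 of 11 lower and 2 higher. There 31.5% of all genes were called in either direction. ADAM12 was higher in RCC4 than in HCT116 by 1.84 (adjusted p = 0.000235), and NRG1, a ligand of ERBB3, stood at -0.86 (0.00346). In that comparison PLCG1 stood at -1.05 (0.000203), HRAS at -0.81 (0.00304) and GRB2 at 0.65 (0.0188).

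The genes whose values ran closest to TGFA over the 20 RCC4 arrays were NDRG1 (Pearson r 0.92), NCKIPSD (0.91), PPP1R3C (0.904), P4HA1 (0.902) and TNIP1 (0.901). NDRG1 is a hypoxia-induced gene, PPP1R3C a glycogen-targeting phosphatase subunit and P4HA1 a collagen prolyl hydroxylase. Within the sets, of 8 and 12 arrays, these correlations were 0.86 to 0.97 and 0.82 to 0.92. Over all 30 arrays another list came first, AGAP1 (0.925), FUCA1 (0.921), CD44 (0.915), RAB38 (0.914) and VPS26C (0.912), which also carries the difference between lines. For EGFR the closest in RCC4 were RELA, an NF-kB subunit (0.929), PTPN14 (0.928), NOL3 (0.892), MKRN1 (0.891) and OSMR (0.89), at 0.85 or more within each set. For ERRFI1 they were SOWAHC (0.951), ZNF639 (0.909), MRTFB (0.899), NCOA6 (0.897) and MTRFR (0.892), of which all but SOWAHC were at 0.47 or less within set 1. EREG was null on every RCC4 array and had no such genes. The correlations carry no test, since the arrays share genotype, time and set.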

How the data were processed

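Total RNA of 30 cultures of 3 lines was hybridised to Affymetrix arrays of 35356 probe sets. The deposited values are whole numbers of linear intensity; how the authors scaled them, with which software, and what null entries mean is not given in the sources used here. Null was taken as 0. Values became log2(intensity + 16), and each array was centred on its median over genes, since array medians spanned 0.903. Of 17478 annotated probe sets 16905 had 1 symbol and 573 several, and 17878 were unnamed; the brightest gave 12690 genes, and the upper 60% by mean (at or above log2 6.8), 7614 genes, were tested. limma 3.58.1 in R 4.3.3 was used, two-sided, with Benjamini-Hochberg adjustment over all 7614 genes and a threshold of 0.05. Fold changes are on the log2(intensity + 16) scale and understate those of dim genes. Scripts were checked on simulated data.

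The 8 replicated RCC4 arrays were fitted by group, and all 20 with genotype and state. For the other lines, hypoxia was fitted within each line and genotype, and p53 within each line and time, and the lines by their 8 arrays at 0 h, where genotypes serve as replicates. P-values measure the spread between these arrays, and the number of arrays limits the precision. Same-numbered replicates deviated together: the correlation of replicate differences between groups was 0.794 to 0.916 over 6 pairs of groups, so blocked values, by replicate number, stand beside results whose call changes. That number equals the array set, so pairing and set cannot be told apart. Second probe sets of EGFR and ERBB2 were added to the same fits. Alternatives were another pseudocount, quantile normalization, no centring, no filter, nulls left out, mean over probe sets, blocks and left-out arrays. Named were all 9 genes, up to 4 called genes per pathway list and comparison by size, and the HIF-induced ADM, BNIP3 and NDRG1. Not every called gene of the lists is named between lines or with the array set as a block. The 5 tested genes most correlated with TGFA, EGFR, EREG and ERRFI1 were named as well. Members and lists were chosen with earlier results of these data known. Promoter sequences are from RefSeq, build GRCh38.p14, where 8 of the 9 genes had an entry, and were matched by symbol.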

Additional observations from a re-analysis of the deposited data

Results flagged for a closer look

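TGFA changed differently with 18 h of hypoxia in the VHL genotypes: the change in VHL-null minus that in VHL-restored RCC4 cells was -1.27, past the threshold with the replicate block (limma adjusted p = 0.0113). HBEGF was higher with p53 than without it in both H1299 pairs (mean difference 0.06) and lower in all 3 HCT116 pairs (mean -0.17); the difference between the lines was not tested. EGFR by its brightest probe set was lower after 24 h of hypoxia in both H1299 backgrounds (mean -0.09) and higher in both HCT116 backgrounds (mean 0.05). This was not tested either. The second EGFR probe set, dim in these lines, did not show it. It stood at 0.66 and 0 in H1299 without and with p53, and at -0.07 and 0.03 in HCT116.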

How the results depend on the processing

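Of 885 values of the 5 tested members under alternatives, 853 kept their side of the threshold, of which 63 changed sign with neither value called; 22 lost a call, 7 gained one and 3 called values reversed. With the replicate block, 2 members were called for 18 h of hypoxia in VHL-restored cells, 1 for VHL at 0 h and 1 for the interaction, against 0 without it. Of all genes, 6.58%, 7.51% and 0.565% were called with the block in these comparisons. In that hypoxia comparison log2(intensity + 64) and the mean over probe sets each called 1 member (TGFA, limma adjusted p = 0.0426 and 0.0339). The block changed no other call of the brightest probe sets; the second EGFR probe set also passed with it at 18 h between genotypes (-0.50, adjusted p = 0.0275). Over the 8 states 2 members were called, where 15.1% of all genes were. The count was 0 without centring and 1 without the filter (EGFR lost, limma adjusted p = 0.0584). It was 1 in array set 1 alone (14.7% of all genes called) and 1 without the VHL-restored array at 4 h of reoxygenation. In array set 2 alone TGFA and HBEGF were among the members called, where 45.7% of all genes were. The fits of 1 set and the fit without that array were chosen after seeing the data. Leaving out a replicate gave 1 to 2. In array set 1 alone the called member was HBEGF, whose difference reversed to -0.26. Between lines, 3 members were called for RCC4 against HCT116 and 4 for RCC4 against H1299, where 40.5% and 35.3% of all genes were called. No centring left 1 member called in each. TGFA was among the 4 called against H1299. It was tested only because of its RCC4 arrays, so its calls between lines support nothing. For H1299 against HCT116 1 member was called, again TGFA, where 3.95% of all genes were. That call became 0 with log2(intensity + 64), quantile normalization, no centring, no filter, nulls left out or array set 1 alone, and 0 to 1 with an array left out. EGFR between lines reversed to 0.85 against HCT116 and 1.46 against H1299 with the mean over probe sets. The cause of these changes was not tested. Counts of all genes called moved from 3 to 501 and from 9 to 572 with the block for hypoxia in VHL-restored cells and for VHL at 0 h, and from 1151 to 226 without centring over the 8 states. Single arrays at most times, null entries and unknown scaling limit what the dim members show.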
